A study of Mus musculus with 31 samples.

Results

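This account covers polysome RNA against total RNA in embryonic day 13 (E13) mouse neocortex whose genotype label reads HuR cKO, a conditional knockout, across all genes measured. It compares 5 of the series' 31 poly(A) RNA sequencing libraries, the 3 polysome and 2 total RNA libraries of that age and genotype. All 5 libraries carry the same genotype label, cKO, and the same tissue label, brain neocortex; the labels name no strain, no Cre driver and no deleted part of the gene. The tissue was lysed with cycloheximide, which holds ribosomes on mRNA, and the cleared lysate was either kept as total RNA or separated on a sucrose gradient into fractions, of which 9 to 12 were pooled as polysome RNA and 4 to 7 as the pool of subunits and single ribosomes, called monosome RNA here. The other libraries used below are the 3 E13 monosome libraries labelled cKO, the 3 polysome and 3 total RNA libraries labelled cKO from the day of birth (P0), and the 2 polysome and 2 total RNA libraries labelled wild type (WT) at E13. The labels do not say whether libraries came from separate embryos, litters or pools, so a p-value here reflects only how far the libraries spread, and that spread may be technical. The columns are called c0, c1 and c2 within a group, because their numbers could not be matched to single samples.

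An mRNA in translation often carries several ribosomes and sediments as a polysome. Polysome RNA relative to total RNA here describes a gene's relative level in fractions 9 to 12 against that in the lysate. RNA with a single ribosome falls in the monosome pool, so a low value does not mean RNA without ribosomes. The number of ribosomes on an mRNA is limited by the length of its coding sequence, and mRNAs of the translation machinery often begin with a C followed by pyrimidines, the 5′ terminal oligopyrimidine (5′ TOP) motif, through which growth signals control their loading. HuR, encoded by Elavl1, binds AU- and U-rich elements in mRNAs and influences their stability and translation. In developing neocortex, radial glia divide and form intermediate progenitors and projection neurons, which are the main cell classes at this age.

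The sequences below are shown because mRNAs with 5′ TOP starts are among the RNAs described here. They are the RefSeq starts (GRCm38.p6), 15 bases before the annotated start and 15 from it, of the 4 ribosomal protein genes called lower in polysome RNA that begin with a C-led run of at least 5 pyrimidines, of 2 host genes of small nucleolar RNAs called lower with such a start, and of Rpl15, which has a longer run and was not called. They were chosen after their values were seen. Among ribosomal protein genes with a matched start, 14 had such a run, of which 4 were called lower (28.6%) and 0 higher. Of all genes tested, 5.15% were called lower and 2.72% higher. Whatever their start, 24.2% of small-subunit and 16.3% of large-subunit ribosomal protein genes were called lower. Because most of the 14 were not called, the genes shown do not stand for all genes with such a start. Capitals mark the uninterrupted pyrimidine run from the start base onward, read on the gene's own strand.
Rps21, chr2:180257364-180257393, plus strand: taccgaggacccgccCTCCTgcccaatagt
Rpl35a, chr16:33056467-33056496, plus strand: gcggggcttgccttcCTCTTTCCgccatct
Rplp2, chr7:141447636-141447665, plus strand: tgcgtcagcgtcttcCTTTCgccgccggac
Rpl38, chr11:114668565-114668594, plus strand: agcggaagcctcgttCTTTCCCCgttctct
Snhg8, chr3:123508322-123508351, minus strand: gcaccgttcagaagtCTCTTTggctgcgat
Snhg7, chr2:26640230-26640259, minus strand: gtggagatgctcggcCTCTCggcagccatg
Rpl15, chr14:18270972-18271001, minus strand: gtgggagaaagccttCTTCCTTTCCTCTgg
A run of this kind stands at the annotated start of 813 of the 27025 RefSeq genes with a start in the table (3.01%). The log2 fold changes of polysome over total RNA, on the log2(FPKM + 1) scale with standard errors (SE), were -1.87 ± 0.39 for Rps21, -1.47 ± 0.37 for Rpl35a, -1.73 ± 0.47 for Rplp2 and -1.33 ± 0.39 for Rpl38. They were -2.17 ± 0.32 for Snhg8, -1.58 ± 0.41 for Snhg7 and -0.13 ± 0.32 for Rpl15. The calls of Rpl35a, Rplp2 and Rpl38 were kept only without polysome c0, and that of Rps21 was lost without total c0 or total c1. Snhg7 was lost without polysome c1 and, at -0.91 (adjusted p = 0.365), without total c1, while Snhg8 was called without each library. RefSeq starts were matched for 78.6% of the genes tested and for 61 of 82 ribosomal protein genes (74.4%), which is under the 80% needed, so a comparison of genes by their start sequence is void and is not given.

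The 5 libraries differed in ways other than the fraction. From low FPKM values (fragments per kilobase of transcript, scaled to sequencing depth), what 1 fragment adds, against the median cKO library, was 1.501 in polysome c0, 0.902 and 0.851 in the other polysome libraries, and 1.13 and 1.01 in total c0 and c1, so polysome c0 was the shallowest of the 5; the depth in fragments is unknown. Pearson's r of log2(FPKM + 1) across genes, which are not replicates, was 0.931 to 0.974 within the polysome libraries, 0.971 between the total RNA libraries and 0.916 to 0.953 between polysome and total RNA. The ribosomal RNA precursor Rn45s measured 426 to 599 FPKM in polysome RNA, 5938 in total c0 and 1272 in total c1. The Y-linked gene Ddx3y measured 3.18 FPKM in polysome c0, 2.06 in polysome c2 and 3.29 in total c1, and at most 0.0174 in polysome c1 and total c0, which had 1.89 and 2.36 FPKM of Xist, so the libraries do not share one make-up of embryos. Of the embryonic globins, Hbb-y measured 8242 to 18876 FPKM across the polysome libraries against 3914 and 8643 in total RNA. The part of these differences in the results below was not tested.

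Elavl1, the targeted gene (GRCm38 chr8:4285382-4325413, minus strand), was present in all 5 libraries. It measured 28.3, 29.9 and 29.996 FPKM in polysome c0, c1 and c2 and 55.4 and 42.5 FPKM in total c0 and c1, so the groups did not overlap and polysome RNA held the lower values. The log2 fold change was -0.704 ± 0.23 (SE), which missed the threshold of limma (adjusted p = 0.0717). The monosome libraries held more, at 83.9, 80.03 and 82.03 FPKM. Beside these, the WT E13 libraries measured 28.5 and 39.5 FPKM in total and 60.6 and 42.4 FPKM in polysome RNA. Elavl1 in total RNA labelled cKO was thus not below WT, although the tables may be scaled separately, and gene totals say nothing about the deleted exons. Because this check does not show the loss of the gene, the genotype is given as labelled throughout.

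Of 12302 genes tested, limma called 968 between polysome and total RNA (7.87%, threshold 0.05 on the adjusted p). In polysome RNA, 334 were higher (2.72%) and 634 lower (5.15%), and the lower calls had the larger changes, with 533 of 634 past a log2 difference of 1 against 133 of 334 higher calls. The median log2 fold change of all genes was 0.07. The polysome and total RNA libraries did not overlap for 967 of the 968 called genes, beside 19.1% of all genes tested that lay without overlap higher in polysome RNA and 14.3% that lay lower. The counts depended on single libraries: without polysome c0 limma called 647 higher and 963 lower, without polysome c1 180 and 418, without polysome c2 156 and 371, without total c0 77 and 201, and without total c1 77 and 267. No called gene changed sign in any of these fits. For the 967 without overlap this was fixed in advance, since leaving out 1 library cannot reverse their sign. A fit on the 5 libraries alone, with 3 residual degrees of freedom, called 7 higher and 188 lower.

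**Figure D1:**
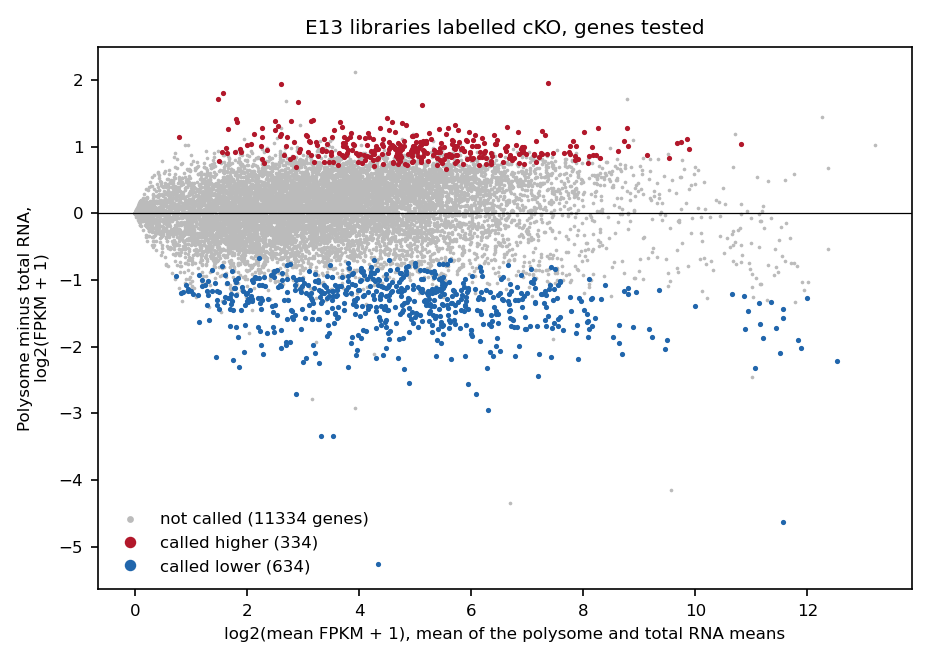
Difference in log2(FPKM + 1) between polysome and total RNA (y axis) against the log2 mean level of both groups (x axis) for the 12302 genes tested, one point per gene. Called genes are coloured, 334 higher and 634 lower, and the lower ones reach farther from 0 than the higher ones.

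The largest falls joined short mRNAs, non-coding RNAs and single genes of several functions. Pkig (GRCm38 chr2:163658386-163726158, plus strand), an inhibitor of cyclic AMP-dependent protein kinase with 76 residues, measured 15.7, 22.1 and 13.9 FPKM in the 3 polysome libraries and 157 and 121 in total RNA. Its log2 fold change was -2.95 ± 0.34 (SE; adjusted p = 0.000266) and it was also called without each library in turn. Metrn, a secreted neurotrophic factor, measured 14.004, 18.99 and 17.8 against 103 and 105 FPKM (-2.56 ± 0.29, adjusted p = 0.000266), with polysome and total RNA far apart in every library. Bola3 and Bola2, of a family that acts in iron-sulphur cluster assembly, measured 30.8, 14.1 and 10.4 against 120.2 and 109.5 FPKM and 95.2, 96.4 and 67.5 against 438 and 349 FPKM. Their log2 fold changes were -2.71 ± 0.44 and -2.18 ± 0.34, and both were called without each library in turn. Ftl1, the ferritin light chain, whose mRNA carries an iron-responsive element, measured 946, 771 and 488 FPKM in polysome RNA against 3880.2 and 3224 FPKM in total RNA. Its level in polysome RNA was the lowest in c2 and its log2 fold change -2.32 ± 0.401 (adjusted p = 0.00235).

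Other large falls were those of Tmem134 (-2.55 ± 0.33), the SMN complex component Gemin7 (-2.32 ± 0.35), the LIM-only transcription cofactor Lmo1 (-2.301 ± 0.44) and Ttc32 (-2.23 ± 0.39). Lmo1 was at 1.02, 6.71 and 5.01 FPKM in polysome RNA against 24.1 and 18.98 FPKM in total RNA, and Ttc32 at 1.11, 2.01 and 2.26 and 9.01 and 15.6 FPKM; all of these libraries kept the groups apart. The Lmo1 call was lost without total c0, at -2.14 (adjusted p = 0.0562), and the Ttc32 call without total c1, at -1.87 (adjusted p = 0.0523). Lars2, the mitochondrial leucyl-tRNA synthetase, had a log2 fold change of -4.63 ± 1.06, with 189.8, 144 and 111 FPKM in polysome RNA against 10647 and 1224 FPKM in total RNA. The total RNA libraries differed widely for it, and total c0, the higher one, also held the most Rn45s. Without total c0 the Lars2 value was -3.07 (adjusted p = 0.186), and the part of Rn45s in it was not tested.

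The largest rises were smaller than the falls and spread over unrelated functions. Rpl26, a large-subunit ribosomal protein, measured 437, 197 and 164 FPKM in polysome RNA against 53.2 and 71.5 FPKM in total RNA (1.95 ± 0.398, adjusted p = 0.00604). Polysome c0 stood above the other polysome libraries, and without total c0 the value was 1.74 (adjusted p = 0.0777). Rpl26 was the only ribosomal protein gene of 82 called higher; such genes have close pseudogenes, and their values are uncertain where reads could be split among copies. Cnn2, an actin-binding calponin, measured 60.5, 51.7 and 42.2 against 13.8 and 18.1 FPKM (1.63 ± 0.25, adjusted p = 0.00132). Hmox2 (GRCm38 chr16:4726361-4766742, plus strand), the constitutive heme oxygenase, measured 72.6, 76.4 and 74.3 against 27.6 and 30.5 FPKM (1.33 ± 0.21, adjusted p = 0.00133), with little spread within either group. Ica1, a protein of secretory vesicle membranes, measured 7.68, 6.802 and 7.102 against 1.87 and 2.45 FPKM (1.38 ± 0.24). Cnn2, Hmox2 and Ica1 were called without each library in turn.

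The other large rises each lost their call without at least 1 library. They were Lgals7, a galectin (1.67 ± 0.45), the peroxisomal enzyme Phyh (1.44 ± 0.28), the meiotic recombination factor Mnd1 (1.39 ± 0.37), the complement chain C1qc (1.39 ± 0.33), Tceal5 (1.39 ± 0.34), the myosin light chain Myl9 (1.37 ± 0.35), the phosphatase Cpped1 (1.37 ± 0.32) and the kinetochore protein Cenph (1.36 ± 0.33). Without total c0 the adjusted p was 0.315 for Lgals7, 0.0888 for Phyh, 0.183 for C1qc, 0.067 for Tceal5, 0.0926 for Myl9, 0.247 for Cpped1 and 0.196 for Cenph. Mnd1 kept its call there and lost it without total c1 (adjusted p = 0.347), polysome c0 or polysome c2. Lgals7 was also lost without polysome c1, Tceal5 without total c1, and Myl9 without polysome c0 or total c1.

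**Figure D2:**
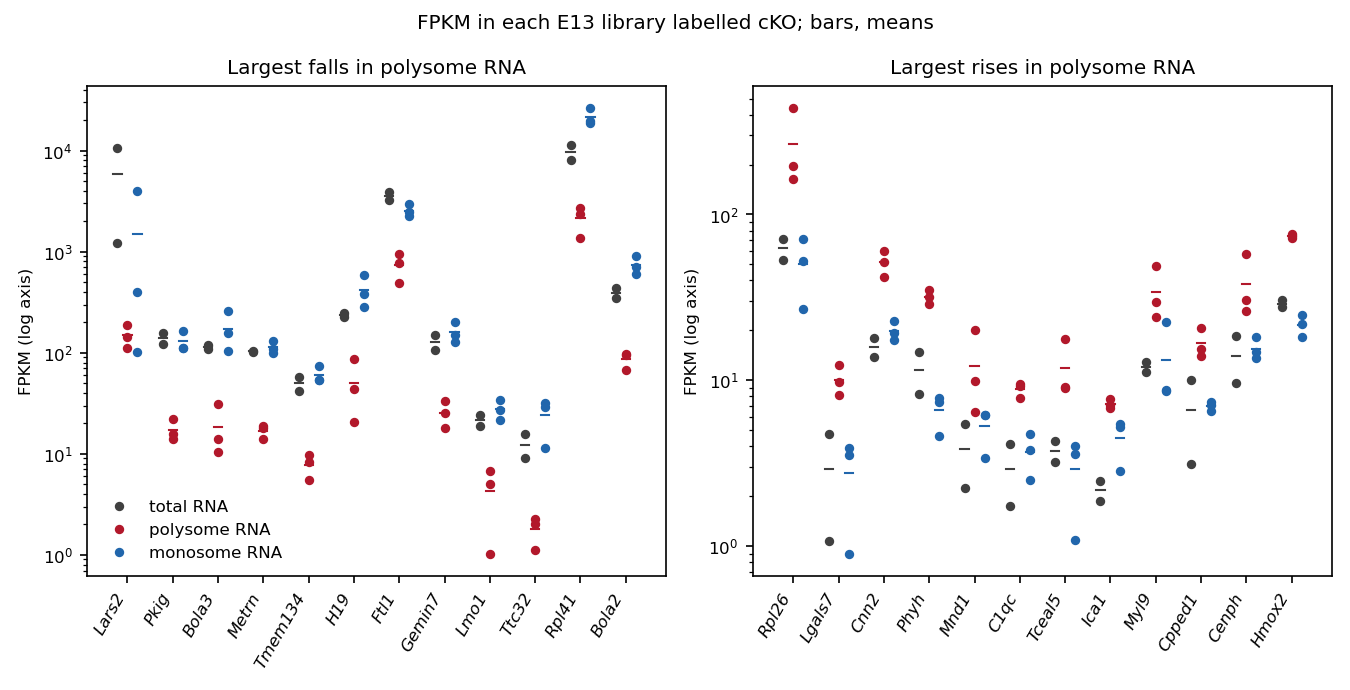
FPKM on a log axis of the 12 largest falls (left) and the 12 largest rises (right) in each E13 library labelled cKO, with points for single libraries and bars for means. For every gene shown the polysome points lie apart from the total RNA points, while the monosome mean (blue) lies above the total RNA mean for the falling genes other than Lars2, Pkig and Ftl1.

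Coding length, which the comparison did not use, differed between the called genes. Lengths were found for 11829 genes (96.2%) in GENCODE M21. The median protein had 456 residues among all tested genes, 326.5 among the genes called higher and 189.5 among those called lower. Of 252 genes that encode proteins of under 100 residues, 110 were called lower (43.7%) and 0 higher, beside 5.15% and 2.72% of all genes, and their median log2 fold change was -0.95. In the single polysome libraries c0, c1 and c2, set against the mean of total RNA, the medians of these genes were -0.66, -1.06 and -1.12, while the total RNA libraries differed from each other by 0.17. Short coding sequences were thus low in every polysome library.

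From 100 to under 200 residues the median was -0.21, with 181 of 1333 genes lower (13.6%) and 25 higher. In polysome c0, c1 and c2 the medians of this class were 0.10, -0.47 and -0.27, so c0 had the other sign. From 200 to under 400 residues the median turned to 0.18, and this range held 191 of the 334 rises. Of its 3453 genes these were 5.53%, and 168 were called lower (4.87%), beside 2.72% and 5.15% of all genes. The median was 0.17 from 400 to under 800 residues and 0.04 from 800 to under 1600. For 1600 and over it was -0.13, and total c0 and c1 differed there by -0.29, more than the groups. Single polysome libraries also differed in sign in these last classes. In c0, c1 and c2 the medians were -0.17, 0.20 and 0.11 from 800 to under 1600 and -0.25, -0.14 and 0.03 for 1600 and over. The median under 100 residues lay apart from that of 200 to under 400 residues by -1.13 (SD 0.184 over the 3 polysome libraries, which share the same total RNA). The untranslated part of the transcript showed no such order, with medians of 0.07 under 400 bases, 0.11 from 400 to under 1600 and 0.07 from 1600 bases. Among proteins under 100 residues, the medians were -0.98, -0.98 and -0.77 in these 3 classes of untranslated length. Exceptions of under 100 residues were S100a11 (0.98 ± 0.32, adjusted p = 0.0698) and Nrgn (0.81 ± 0.53, adjusted p = 0.394), which were among the highest of the class, were picked for that and were not called. FPKM divides by transcript length, so the deposited values carry a correction that is largest for short transcripts.

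**Figure D3:**
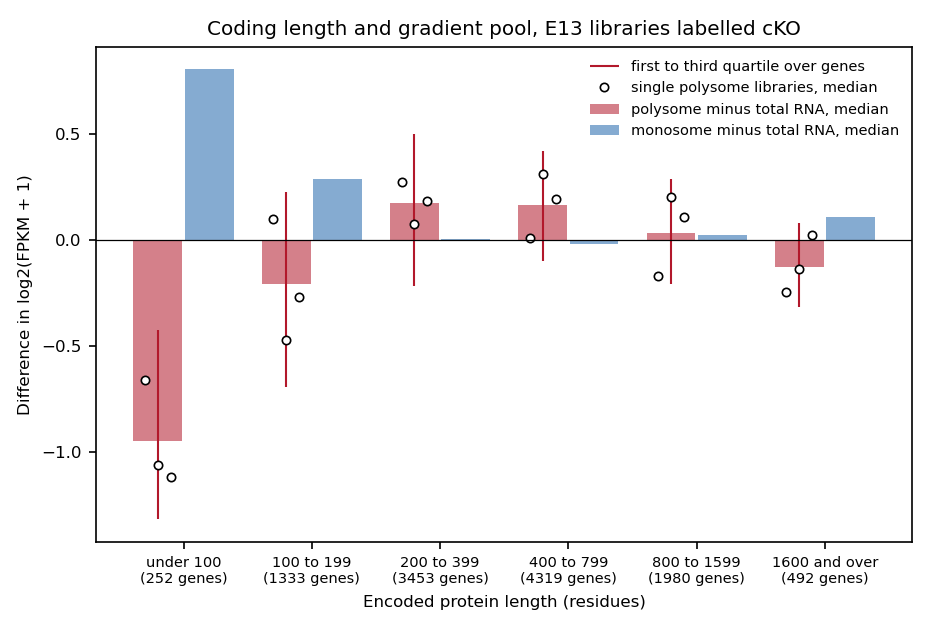
Median difference in log2(FPKM + 1) from total RNA (y axis) by encoded protein length in residues (x axis), for polysome RNA in red, with quartiles over genes as lines and single polysome libraries as circles, and for monosome RNA in blue. Under 100 residues the polysome median is -0.95 and the monosome median 0.81, and from 200 residues on the polysome medians lie between -0.13 and 0.18.

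Part of the ribosomal protein mRNAs were called lower in polysome RNA. All 33 small-subunit genes had negative values, with a median of -0.76, and 8 were called lower and 0 higher (24.2% and 0%, beside 5.15% and 2.72% of all genes). Rps12, a small-subunit protein, measured 2326, 1408 and 1001 FPKM in polysome RNA against 6442 and 5614 FPKM in total RNA (-2.02 ± 0.45, adjusted p = 0.00991). Rps28 measured 1715, 1241 and 1023 against 4212 and 4313 FPKM (-1.72 ± 0.38), and Rps21 1424, 897 and 791 against 3910.3 and 3446 FPKM. Rps27l, a paralog of Rps27 that is linked to p53, measured 246, 149 and 94.996 against 703 and 620.5 FPKM (-2.11 ± 0.39) and was called without each library in turn. In each of these genes polysome c0 held the highest of the polysome values and none reached total RNA. The calls of Rps12, Rps28 and Rps21 were lost without total c0 or total c1. The other 4 calls were Rps29, Rpsa, Rps20 and Rps2.

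Of 49 large-subunit genes, 8 were called lower (16.3%) and 1, Rpl26, higher (2.04%), with a median of -0.62 and 40 values below 0. Rpl41, the shortest at 25 residues, measured 2729, 2343 and 1371 FPKM in polysome RNA against 11248 and 8109 FPKM in total RNA (-2.21 ± 0.42, adjusted p = 0.00443). Rplp1, an acidic stalk protein, measured 1619, 1027 and 773 against 5559 and 3898 FPKM (-2.097 ± 0.42), and Rpl35a 1488, 826 and 889.5 against 3027 and 2692 FPKM. The calls of Rpl41 and Rplp1 were lost without total c0. The other members called lower were Rpl39, Rplp2, Rplp0, Rpl38 and Rpl37a. Length and membership could be read side by side: the 10 ribosomal protein genes under 100 residues had a median of -1.69 beside -0.92 of 242 other genes, the 50 from 100 to under 200 residues had -0.72 beside -0.18, and the 20 from 200 to under 400 residues had -0.31 beside 0.18. The medians of ribosomal protein genes thus lay below those of other genes in each of these length classes, a description with no test. The shares called lower were 80% beside 42.1% under 100 residues and 15% beside 4.81% from 200 to under 400. From 100 to under 200 residues, the class with most of these genes, 10% were called lower beside 13.7% of other genes.

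The ribosomal protein calls depended on the libraries. Without polysome c0 the small- and large-subunit lists had 13 and 16 genes called lower, without polysome c1 5 and 2, without polysome c2 4 and 2, without total c0 1 and 0, and without total c1 1 and 2. The 5 libraries alone gave 3 and 2. The summed level of the small-subunit list was 45071 to 74445 FPKM in polysome RNA and 91346 to 107398 in total RNA, without overlap. Of 17 other 5′ TOP mRNAs, limma called 0 lower and 1 higher (5.88%), beside 5.15% and 2.72% of all genes, with a median of -0.29. At an unadjusted p under 0.05 there were 7, and 2 were called lower without polysome c0. The gene called with all libraries was Npm1, a nucleolar chaperone (0.97 ± 0.28, adjusted p = 0.0394), a call kept only without polysome c0. Npm1 measured 1329, 1223 and 1199 FPKM in polysome RNA against 544 and 746 FPKM in total RNA. The elongation factor Eef2 had -0.899 ± 0.295 (adjusted p = 0.0698) and Tpt1, the translationally controlled tumour protein, -1.15 ± 0.43 (adjusted p = 0.112).

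Of 473 tested genes for which the annotation used gave no coding sequence, 90 were called lower (19.03%, beside 5.15% of all genes) and 0 higher, with a median of -0.40. This class is not the same as non-coding RNA, since it holds Tmem134, which encodes a membrane protein. Host genes of small nucleolar RNAs, whose spliced exons are turned over in the cytoplasm, had the lowest median of any list, at -1.48. All 17 tested hosts were below 0 and 12 were called lower (70.6%). Snhg8 measured 6.29, 7.51 and 4.78 FPKM in polysome RNA against 27.2 and 35.3 FPKM in total RNA (-2.17 ± 0.32, adjusted p = 0.00114) and was called without each library. Snhg6 measured 47.2, 26.2 and 18.2 against 99.2 and 122 FPKM (-1.92 ± 0.41), and 1500012F01Rik 21.3, 18.95 and 16.999 against 68.2 and 70.9 FPKM (-1.82 ± 0.39). Both were lost without total c0 or total c1. Without total c1 the number of hosts called fell to 2; it was 13, 8 and 9 without polysome c0, c1 and c2, 8 without total c0 and 7 in the 5 libraries alone.

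A list of long non-coding RNAs was drawn up as nuclear, but their location was not measured here and need not hold for each member. Of its 16 tested members, 5 were called lower (31.2%, beside 5.15% of all genes) and 0 higher, with a median of -0.68. Malat1 measured 3.22, 2.77 and 1.55 FPKM in polysome RNA against 17.5 and 10.7 FPKM in total RNA (-2.096 ± 0.35, adjusted p = 0.00203). Rian, from the imprinted Dlk1 region, measured 8.304, 10.6 and 9.52 against 26.3 and 44.99 FPKM (-1.76 ± 0.29), and these 2 were called without each library. H19, an imprinted RNA, measured 87.3, 44.1 and 20.8 FPKM in polysome RNA, where c0 was the highest, and 250.0 and 227 FPKM in total RNA (-2.43 ± 0.46). Its call was lost without total c0, at -2.36 (adjusted p = 0.0514). The other called members were 2610017I09Rik (-1.19 ± 0.27) and 6720401G13Rik. The list had 5 calls without polysome c0 or c2, 4 without polysome c1 or total c0, and 3 without total c1 or in the 5 libraries alone.

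Several small subunits of the respiratory chain were lower in polysome RNA. Of 72 nuclear genes of oxidative phosphorylation, 11 were called lower (15.3%) and 0 higher, beside 5.15% and 2.72% of all genes, and the median was -0.06. Ndufc1, a complex I subunit of 76 residues, measured 47.5, 69.4 and 55.4 FPKM in polysome RNA against 224 and 164 FPKM in total RNA (-1.74 ± 0.32, adjusted p = 0.00328). Cox8a, a complex IV subunit of 69 residues, measured 237, 215 and 124 against 695 and 505 FPKM (-1.68 ± 0.32), and Ndufa1, of 70 residues, 94.5, 77.7 and 65.7 against 195 and 208 FPKM (-1.35 ± 0.27). All 3 were apart from total RNA in every library, and the calls of Ndufc1 and Cox8a were lost without total c0 and that of Ndufa1 without total c1. The count was 17 without polysome c0, 8 without c1, 6 without c2, 1 without total c0, 6 without total c1 and 4 in the 5 libraries alone. Mitochondrial ribosomal protein genes had 1 of 49 called higher (2.04%) and 3 lower (6.12%), near the 2.72% and 5.15% of all genes, with a median of 0.05. Mrps24 measured 20.1, 18.6 and 12.3 against 86.8 and 51.8 FPKM (-1.95 ± 0.33), while Mrps22 measured 40.2, 40.8 and 37.1 against 18.5 and 22.7 FPKM (0.91 ± 0.21). Both calls were lost without total c0 (adjusted p = 0.0514 for Mrps24 and 0.127 for Mrps22).

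The lists of this paragraph were added after the values were seen. The Sm and LSm proteins, small RNA-binding rings of splicing and decay, had 4 of 17 called lower (23.5%) and 0 higher, beside 5.15% and 2.72% of all genes, with a median of -0.85. Lsm1, of the cytoplasmic decay ring, measured 12.4, 8.89 and 7.62 FPKM in polysome RNA against 29.6 and 26.3 FPKM in total RNA (-1.47 ± 0.28), and Snrpf, a spliceosomal Sm protein, 91.5, 79.4 and 69.4 against 313 and 223 FPKM (-1.72 ± 0.35). The calls of Lsm1 and Snrpf were lost without total c0, as was that of Gpx4 below. Lsm6 had -1.14 ± 0.25 and Lsm5 -1.69 ± 0.41. The count was 8 without polysome c0, 3 without c1 or c2, 0 without total c0 and 2 without total c1. Selenoproteins, which recode a stop codon, had 2 of 11 called lower and 2 higher (18.2% each), with a median of -0.55. Sepw1, of 88 residues, measured 317, 325 and 194 against 1218 and 1025 FPKM (-2.04 ± 0.34, called without each library), and Gpx4, a lipid peroxide reductase of 197 residues, 182, 128 and 96.6 against 498 and 365 FPKM (-1.69 ± 0.33). The thioredoxin reductases Txnrd2 (0.88 ± 0.25) and Txnrd1 (0.802 ± 0.24), of 527 and 499 residues, were higher. Both of these rises were lost in most fits without a library, with 1 of them left without polysome c0 and 0 without any of the other 4.

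The proteasome, which degrades ubiquitin-tagged proteins, had the highest median of the lists of cellular machines. Of 33 proteasome genes, 32 were above 0, 11 were called higher (33.3%, beside 2.72% of all genes) and 0 lower, with a median of 0.77. Psmb7, a catalytic core subunit, measured 552, 598 and 631 FPKM in polysome RNA against 327 and 263 FPKM in total RNA (1.01 ± 0.23, adjusted p = 0.011). Psma2, a core ring subunit, measured 407, 371 and 367 against 191 and 190.1 FPKM (0.997 ± 0.24). The lid subunits Psmd6 and Psmd11 measured 125, 186 and 166 against 74.7 and 81.6 FPKM (0.998 ± 0.23) and 89.5, 104 and 106 against 49.6 and 41.005 FPKM (1.13 ± 0.27). Without total c1 all 4 of these calls were lost, and without total c0 all but that of Psmb7. Summed over the list, polysome RNA held 8215 to 8603 FPKM and total RNA 4331 to 6162. The one value below 0 was Psmd1 (-0.01 ± 0.24), singled out after its value was seen. The count was 15 without polysome c0, 6 without c1, 3 without c2, 2 without total c0, 0 without total c1 and 0 in the 5 libraries alone.

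Most genes that make ribosomes, a list apart from the ribosomal protein genes, were above 0 but not called. Of 52 ribosome biogenesis and RNase P genes, a list added after the values were seen, 10 were called higher (19.2%, beside 2.72% of all genes) and 0 lower, 44 were above 0 and the median was 0.35. Pop4, a subunit of RNase P and MRP, measured 189, 146 and 139 FPKM in polysome RNA against 58.4 and 76.6 FPKM in total RNA (1.21 ± 0.23, adjusted p = 0.00437). Ebna1bp2, which acts in large-subunit assembly, measured 76.4, 58.4 and 58.1 against 28.9 and 26.2 FPKM (1.18 ± 0.23), and Rpf1 34.2, 46.9 and 42.1 against 17.99 and 22.2 FPKM (0.99 ± 0.21). The Ebna1bp2 call was lost without total c1, and those of Pop4, Rpf1 and Rpp40 without total c0. The RNase P subunit Rpp40 was the lowest of these in level, at 9.38, 6.99 and 4.64 against 1.97 and 2.61 FPKM (1.25 ± 0.27). The count was 12 without polysome c0, 8 without c1, 6 without c2, 2 without total c0, 6 without total c1 and 0 in the 5 libraries alone. The RNA component of RNase MRP itself, Rmrp, which is not translated, was called lower (-3.34 ± 0.95) and was listed at 0 in 2 of the 3 polysome libraries. It is named for its function, after its value was seen, and its call was kept only without polysome c1; without total c1 it was -2.77 (adjusted p = 0.269).

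Of 41 translation initiation factors and their regulators, 5 were called higher (12.2%) and 1 lower (2.44%), beside 2.72% and 5.15% of all genes, with a median of 0.37. Eif2b1, a subunit of the exchange factor for eIF2, measured 70.5, 54.3 and 54.2 FPKM in polysome RNA against 22.7 and 25.7 FPKM in total RNA (1.26 ± 0.22, adjusted p = 0.0023) and was called without each library. Eif2ak1, the heme-regulated eIF2 kinase, measured 44.3, 49.2 and 46.9 against 17.1 and 27.2 FPKM (1.08 ± 0.24), and Eif4h, a helper of the eIF4A helicase, 382, 400.1 and 335 against 242 and 169 FPKM (0.88 ± 0.23). The Eif2ak1 call was lost without total c0, and that of Eif4h without polysome c1, polysome c2 or total c1. The lower one was Eif4ebp1, the repressor of eIF4E, of 117 residues (-1.31 ± 0.35, adjusted p = 0.0277). It measured 25.7, 14.2 and 11.6 against 58.2 and 29.9 FPKM. Its call was lost without polysome c1, polysome c2 or total c0, and its value without total c0 was -0.84. The number called higher was 9 without polysome c0, 3 without polysome c1 or total c0, 2 without polysome c2 or total c1 and 0 in the 5 libraries alone. Glycolysis had 1 of 17 called, Pgam1 (0.82 ± 0.23, adjusted p = 0.0369), with 15 members above 0 and a median of 0.37. Without polysome c0, 3 glycolysis genes were called, and 0 without any of the other libraries. Of 20 cytosolic aminoacyl-tRNA synthetases and 32 extracellular matrix and secreted proteins 1 each was called higher, and of 54 chromatin regulators 1 was called lower. Stress mRNAs with upstream reading frames, which restrain translation of the main frame, had 0 of 15 called by limma (4 at an unadjusted p under 0.05, and 2 called lower without polysome c0). The median was 0.26 and 10 of the 15 were above 0, with values from -0.86 to 2.13. The lowest of them, Atf4, measured 106, 77.03 and 61.01 against 141 and 149 FPKM (-0.86 ± 0.27, adjusted p = 0.0614).

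**Figure D4:**
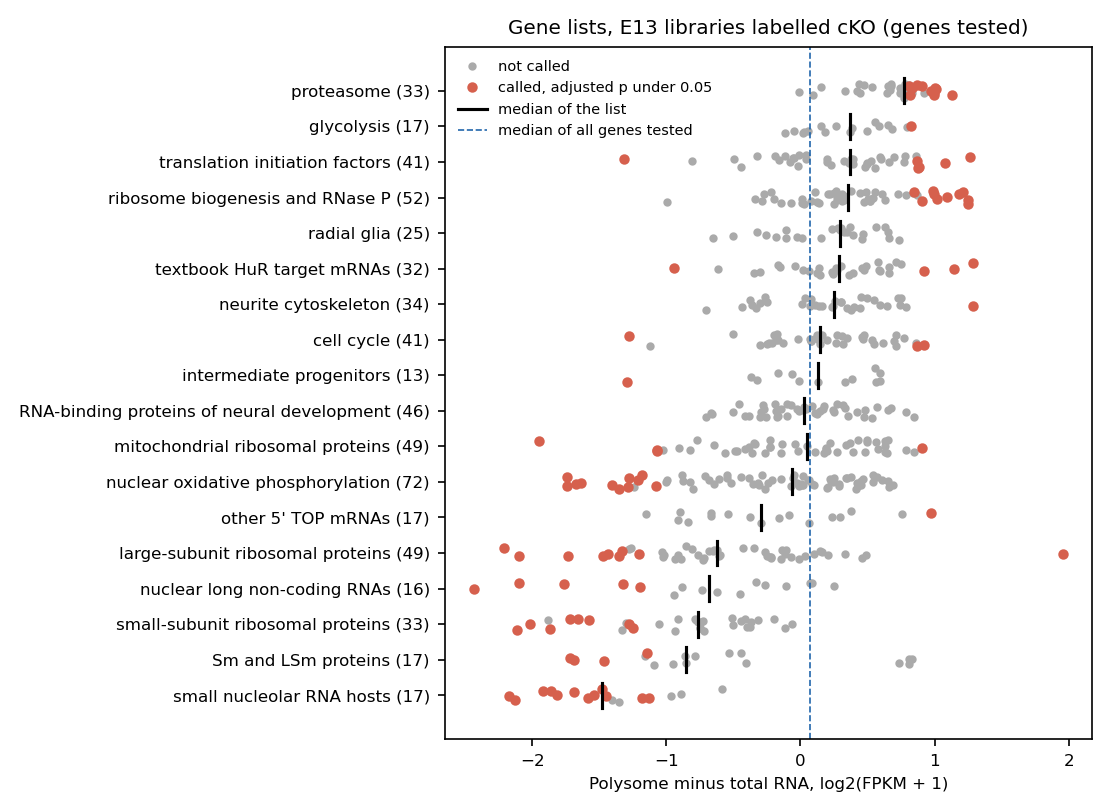
Difference in log2(FPKM + 1) between polysome and total RNA (x axis) for the tested members of 18 gene lists (y axis, number of genes in brackets), with called members in red, list medians as black bars and the median of all genes, 0.07, as a dashed line. Medians run from -1.48 for hosts of small nucleolar RNAs to 0.77 for the proteasome.

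Of 32 textbook HuR target mRNAs tested, 3 were called higher (9.38%) and 1 lower (3.12%), beside 2.72% and 5.15% of all genes. A total of 25 were above 0 and the median was 0.29, beside 0.07 for all genes, 0.30 for radial glia genes and 0.37 for initiation factors. Ccnd1, the G1 cyclin, measured 135, 178 and 156 FPKM in polysome RNA against 79.8 and 83.7 FPKM in total RNA (0.92 ± 0.22, adjusted p = 0.0173). Gap43, a growth cone protein, measured 54.8, 69.3 and 73.6 against 17.3 and 39.7 FPKM (1.28 ± 0.33), and Hmox1, the inducible heme oxygenase, 11.9, 19.8 and 12.97 against 6.66 and 5.42 FPKM (1.15 ± 0.299). Xiap, an inhibitor of caspases, was lower, with 7.58, 4.57 and 6.58 against 9.63 and 16.7 FPKM (-0.94 ± 0.26, adjusted p = 0.0343). The groups stayed apart for all 4 genes, but the number called higher was 5 without polysome c0, 0 without polysome c1 and 1 without polysome c2, total c0 or total c1. Xiap kept its call only without polysome c0 or total c0. Of 46 RNA-binding proteins of neural development, 0 were called by limma in either direction (7 at an unadjusted p under 0.05, and 2 called higher without polysome c0); the lowest adjusted p was that of Srsf1, a splicing factor (0.78 ± 0.24, adjusted p = 0.0544), followed by Elavl1 itself.

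Neural cell classes showed few calls. Of all genes 2.72% were called higher and 5.15% lower, and in lists this short such shares also give few calls. Of 25 radial glia genes 0 were called by limma (5 at an unadjusted p under 0.05, and 2 called without polysome c0), with a median of 0.30; Sox2, a stem cell transcription factor, measured 89.01, 96.9 and 112 FPKM in polysome RNA against 54.3 and 73.98 FPKM in total RNA (0.63 ± 0.22, adjusted p = 0.0801). Of 13 intermediate progenitor genes, 1 was called lower, Mfng, a glycosyltransferase that modifies Notch, with 50.9, 35.9 and 40.2 against 107 and 101 FPKM (-1.29 ± 0.25, adjusted p = 0.00485). The Mfng call was lost by a small margin without total c0, at -1.25 (adjusted p = 0.0514). Among 25 projection neuron transcription factors, 47 axon guidance receptors and 40 synapse genes 0 were called by limma, with medians of 0.03, -0.07 and 0.15 and 2, 3 and 0 genes at an unadjusted p under 0.05. Without polysome c0, 1 axon guidance and 1 synapse gene were called higher. Of 34 neurite genes 1 was called, Gap43, with 3 called without polysome c0 and 0 without polysome c1, polysome c2 or total c0. The cell cycle list had 2 of 41 called higher, Ccnd1 and the replication clamp Pcna, with 692, 768 and 713 against 430.1 and 364 FPKM (0.87 ± 0.24). It had 1 called lower, Cenpf, a long kinetochore protein, with 1.09, 1.49 and 1.504 against 4.72 and 4.72 FPKM (-1.28 ± 0.27). All 3 were called without polysome c0. Without polysome c1 or c2 Cenpf was called and the rises were not. Each of the 3 calls was lost without total c0 or total c1, where Cenpf was at -1.28 in both fits. At an unadjusted p under 0.05, 2819 of all 12302 genes passed, so a missing call does not show equal loading.

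The tissue label was checked against cell type markers. All 10 neocortical markers, among them Sox2, Emx1 and Neurod6, were detected, at a summed 648 to 852 FPKM in polysome and 462 to 714 in total RNA. Markers of interneurons of ventral origin summed to 0.306 to 17.6 FPKM in polysome and 5.91 to 13.5 in total RNA. Markers of endothelium and pericytes summed to 59.6 to 82.5 in polysome RNA and 56.6 to 59.0 in total RNA, those of meninges to 74.0 to 113 and 74.0 to 82.8, and those of microglia to 46.7 to 49.8 and 34.3 to 43.0. Of 9 microglia markers 1 was called higher, C1qc (11.1%), and of 6 Cajal-Retzius markers 1, Lhx5 (16.7%), beside 2.72% of all genes. With so few markers, 1 call says little about a cell type. The Lhx5 value was 0.98 ± 0.27 (adjusted p = 0.0313), a call lost without polysome c1, polysome c2 or total c0. Red blood cell markers summed to 13434 to 39346 FPKM in polysome and 6438 to 16152 in total RNA, so the groups overlapped, with 9 of 10 above 0 and 0 called by limma (2 at an unadjusted p under 0.05). In bulk RNA, a different number of cells of a type and a different loading per cell cannot be told apart, and the part of these cells in the results was not tested.

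The monosome pool, set against the same total RNA libraries, is given side by side because the comparisons share them; it had 1203 genes called (9.78%). Of the 634 genes called lower in polysome RNA, 592 were above total RNA in the monosome pool. Of these 634, 227 were called higher there, beside 6.04% of all genes, and 1 was called lower, beside 3.74% of all genes. Of the 334 called higher in polysome RNA, 265 were below total RNA in the monosome pool. Of these 334, 74 were called lower there, beside 3.74% of all genes, and 6 higher, beside 6.04% of all genes. Rpl41 measured 26256, 18632 and 19685 FPKM in the monosome libraries, Rps12 15438, 11065 and 10801 FPKM, Ndufc1 539, 425 and 444 FPKM and Snhg8 72.2, 46.9 and 55.4 FPKM, each above polysome and total RNA in every library. Pkig and Metrn lay near total RNA there, with 164, 112 and 112 and 109, 100.5 and 130.2 FPKM and monosome minus total values of -0.11 and 0.12. Ftl1, at 2453, 2939 and 2236 FPKM, was below both total RNA libraries and above the polysome libraries. Proteasome genes had a median of -0.97 in monosome against total RNA, with Psma2 at 112, 77.04 and 106 FPKM and Psmd6 at 36.8, 30.3 and 38.05 FPKM, the lowest of the 3 RNA pools. Genes under 100 residues had a median of 0.81 in monosome RNA against -0.95 in polysome RNA.

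The same comparison at P0, in other libraries labelled cKO, shared its direction for most of these genes. Of the 334 genes called higher at E13, 304 were above 0 at P0 and 160 were called higher there, which is 47.9% of the E13 calls and 25.3% of the 633 P0 calls (5.15% of all genes). Of the 634 called lower, 624 were below 0 and 370 were called lower, which is 58.4% of the E13 calls and 46.5% of the 796 P0 calls (6.47% of all genes). No gene was called in the opposite direction. The test of the difference itself, E13 minus P0, called 0 of 12302 genes in limma (684 at an unadjusted p under 0.05, lowest adjusted p = 0.583). Values at P0 were -1.94 for Pkig, -2.17 for Rpl41, -1.405 for Snhg8 and 0.94 for Psmb7. Lmo1 (-0.12), Ttc32 (-0.39) and Mfng (-0.28) were closer to 0 at P0; their differences from E13 were -2.18, -1.84 and -1.01, with adjusted p-values of 0.607, 0.671 and 0.686.

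In WT libraries of the same age, 332 of the 334 genes called higher were above 0 and 205 were called higher, which is 61.4% of the cKO calls and 18.9% of the 1086 WT calls (8.88% of all genes). Of 630 genes called lower that were also tested in the joint fit, 626 were below 0 and 506 were called lower, which is 80.3% of them and 61.6% of the 821 WT calls (6.71% of all genes). The difference between genotypes in the polysome against total value, cKO minus WT, was called for 0 of 12233 genes by limma (243 at an unadjusted p under 0.05, lowest adjusted p = 1). Elavl1 was among the 243: polysome over total RNA was 0.58 ± 0.32 in WT, against -0.704 ± 0.23 for cKO. Its difference was -1.29 ± 0.44 (unadjusted p = 0.00655, adjusted p = 1). Both WT polysome libraries were above both WT total RNA libraries for Elavl1, and all 3 cKO polysome libraries were below both cKO total RNA libraries. With 2 libraries in each of 3 of these groups, only large differences could pass over all genes.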

How the data were processed

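Poly(A) RNA libraries from neocortex were sequenced as paired ends from TruSeq libraries, per the labels' protocols; that kit does not mark strand, so a gene and an overlapping antisense partner cannot be told apart. Gradients were run in tubes of 2 sizes, not assigned to libraries. The submitters' processing notes name TopHat2 2.0.6, Bowtie2 2.0.5.0, Cuffdiff and the builds mm10 and GRCm38; no source used here gives the Cuffdiff version, its annotation or its scaling. The authors deposited FPKM values, one column per library, in a table for each genotype. Of 23284 rows, 26 with dates or bare numbers as names were left out.

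From there, log2(FPKM + 1) of genes with a mean of at least 1 FPKM was fitted with limma 3.58.1 (R 4.3.3; intensity trend; two-sided; Benjamini-Hochberg over all genes tested; called at an adjusted p under 0.05). The main comparison used all 16 cKO libraries in 6 groups (10 residual degrees of freedom); the genotype difference used 31 libraries (19 degrees of freedom), each effect within its own table. Fold changes understate the change of low genes. The p-values take libraries as independent.

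Named genes were Elavl1, the 12 largest called rises and 12 falls with at least 5 FPKM in the higher group and no overlap of libraries (predicted and small RNA genes excluded), and up to 4 members per described list by adjusted p. Members and lists were chosen with earlier results of these data known; 3 of 35 lists were added after the values were seen. Of 988 list entries 965 were in the table. The 13 mitochondrially encoded mRNAs were not analysed here. Coding lengths came from the basic annotation of GENCODE M21. Alternatives were the pseudocount, the filter, rescaling, the trend, the libraries fitted and each library left out.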

Additional observations from a re-analysis of the deposited data

How the results depend on the processing

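Calls rose and fell with the libraries more than with the other settings. For the main comparison, leaving out 1 library gave 77 to 647 genes called higher and 201 to 963 called lower, and for list members 10 to 76 higher and 16 to 92 lower, beside 40 and 58 with all libraries. Polysome c0, the shallowest of the 5 libraries compared, lay at the upper end when left out, and the total RNA libraries at the lower end; of the 968 calls, 874 were shared without polysome c0 and 245 without total c0. With only the libraries compared, 7 genes were called higher and 188 lower, and 1 and 24 list members. Pseudocounts of 0.1 and 5 FPKM, no filter, a minimum mean of 5 FPKM, median ratio rescaling and no trend gave 883 to 1040 calls, and lower calls made up 56.9% to 68.0% of them, beside 65.5%. In no setting did one of the 968 calls change sign. For the 967 of them without overlap, leaving out a library or changing the pseudocount could not change it. The coding length difference of -1.13 moved by less than its SD of 0.184 with a pseudocount of 0.1, a mean of at least 5 FPKM or rescaling.

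Of 440 values of single genes with 1 library left out, 309 kept their direction and side of the threshold, 124 lost a call, 3 gained one and 4 changed sign. The sign changes were in genes near 0 that were not called: Psmd1 ranged from -0.18 to 0.22 and Rpl15 from -0.36 to 0.0901. For the age difference, no filter on low values gave 1 gene called lower (Dmrt1, adjusted p = 0.00171), and every other setting gave 0. For the genotype difference, a pseudocount of 0.1 FPKM gave 1 called higher (A330102I10Rik), no filter gave 1 higher (Tnfsf14) and 1 lower (Hist1h3g), and only the libraries compared gave 1 higher (Snora28); these genes were named after their values were seen. The cause was not tested. No paired analysis was possible because the cKO columns carry numbers that do not match the titles; a replicate block on the equal numbers of the WT E13 libraries left 0 genes called in the genotype difference, but those numbers do not pair the material: Ddx3y was at 0 in WT polysome 0 and 1.42 FPKM in WT total 0, and at 2.61 and 0 in polysome 1 and total 1. The alternatives for start sequences were not run, since that check is void. Depth in fragments is unknown, and 2 total RNA libraries limit the precision.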
